A study of Bos taurus and Bos indicus with 6 samples.

Results

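RHOT1 and 6 partner genes of mitochondrial movement, fusion and division were followed in circulating white blood cells of tick-infested cattle. The genes were RHOT1, RHOT2, MFN1, MFN2, OPA1, DNM1L and FIS1, and every probe set that the array annotation assigns to one of them alone was taken. This gave 7 of 24016 probe sets, for 6 of the 9155 genes that the annotation names. MFN1 had no probe set under its symbol and was not analysed here. The group was chosen by the RHOT1 breed difference on these same arrays, so the RHOT1 values below are a description and support nothing further, and the other genes were added as its functional partners.

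The samples came from 3 Holstein and 3 Brahman animals, annotated as Bos taurus and Bos indicus. All were females aged 6 months under heavy challenge with the cattle tick R. microplus, which is common to both groups. No array of uninfested animals was used here. A breed difference present without ticks and a differing response to them therefore cannot be told apart. Whole white cells were recovered from jugular blood by red cell lysis, without sorting or culture, and RNA of each animal was hybridised to its own Affymetrix bovine array. An array reports 1 value per probe set, a group of short probes for 1 transcript. Values are log2 expression after RMA, so a difference of 1 unit is a doubling of signal, and all differences are Brahman minus Holstein.

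Mitochondria are carried along microtubules and are continually joined and split. RHOT1 and RHOT2 encode Miro1 and Miro2, calcium-binding GTPases of the outer mitochondrial membrane that couple the organelle to adaptors and motors of the kinesin and dynein classes. Mitofusins (MFN1 and MFN2) fuse outer membranes and OPA1 fuses inner membranes, while the dynamin-related GTPase DNM1L cuts mitochondria after recruitment to the surface, where FIS1 is one of the anchored proteins linked to this step. In lymphocytes and other leukocytes these processes place mitochondria during migration and at contacts with other cells, and Miro proteins are also substrates of the PINK1 and Parkin pathway that removes damaged mitochondria.

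The leukocyte label was checked against markers: all 7 pan-leukocyte genes measured, among them PTPRC and LAPTM5, had mean levels between 11.32 and 13.28 in both breeds. Array medians lay between 6.54 and 6.61. Holstein 3 correlated as well with the other breed as with its own over all probe sets, at a mean r of 0.988 for both, whereas each other array correlated better with its own breed. The hybridisation spike-ins, control RNAs added before hybridisation, read 9.71, 10.17 and 9.88 on the Holstein arrays and 9.40, 9.49 and 9.56 on the Brahman arrays, without overlap. Their part in the differences below was not tested beyond a fit that carries their mean as a covariate. Since the spike-in level runs with breed, that fit cannot tell their shares apart. Its intervals are also wider, with an SE for RHOT1 of 0.24 against 0.13. A turned sign or a lower count in that fit is given below as a value only.

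RHOT1 signal was about double in Brahman cells, while no other member separated the breeds. Among the partners OPA1 had the largest difference, in the other direction, and the values of RHOT2, MFN2, DNM1L and FIS1 overlapped. Limma called 1 of the 7 member probe sets at an adjusted p under 0.05 (Benjamini-Hochberg over all probe sets), against 0.137% of all probe sets, and 1 of 7 had no overlap between the breeds, against 20% of all. That 1 probe set is RHOT1 in both counts, which chose it.

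**Figure D1:**
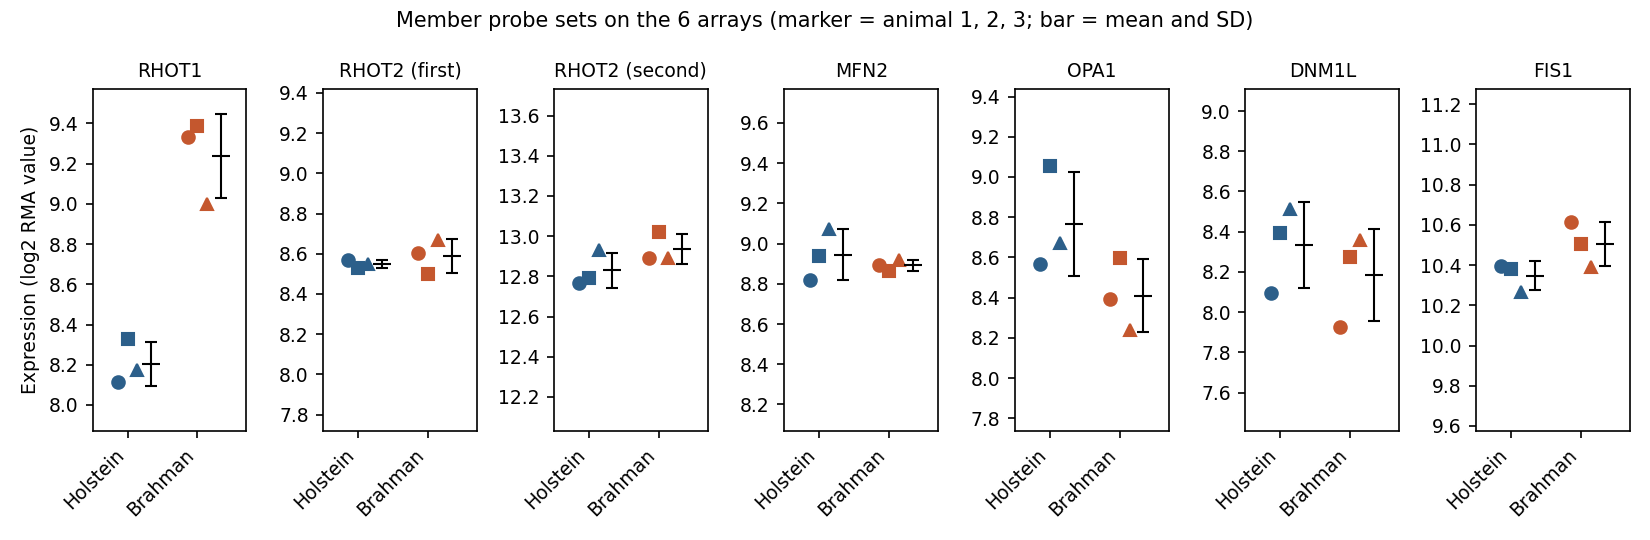
Log2 RMA value of each member probe set on the 6 arrays, with a panel per probe set, the same vertical span in every panel, circles, squares and triangles for animals 1, 2 and 3 of a breed, and a bar for the mean and SD. RHOT1 lies between 8.11 and 8.33 in Holstein and between 8.999 and 9.39 in Brahman, and the breeds overlap in the other 6 panels.

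The RHOT1 probe set read 8.11, 8.33 and 8.17 on Holstein arrays 1, 2 and 3, and 9.33, 9.39 and 8.999 on Brahman arrays 1, 2 and 3. All Brahman animals stood above all Holstein animals, with a gap of 0.67 between the lowest Brahman and the highest Holstein value, and a gap of at least this size in either direction was seen in 0.271% of probe sets. The means were 9.24 ± 0.21 in Brahman and 8.20 ± 0.11 in Holstein (SD, n = 3 each). The difference was 1.04 (SE 0.13, 95% interval 0.74 to 1.33), a 2.05-fold higher signal with an interval of 1.67 to 2.52.

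In limma the adjusted p of RHOT1 was 0.0451, the last of the 33 probe sets that passed when ordered by p. Its size ranked 168 among the 24016 absolute differences. The mean over all arrays exceeded that of 82.6% of probe sets, so the signal was not among the dim ones in either breed. Animals of a breed differed from each other by a within-breed SD of 0.17, larger than that of 59.6% of probe sets.

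The RHOT1 call did not hold in most settings, several of which leave the size of the difference unchanged by construction. With each array left out in turn the difference ran from 0.96 to 1.16. Its sign could not turn in these fits, since the breeds did not overlap. RHOT1 was called in 1 of the 6 fits, the one without Brahman 3, at an adjusted p of 0.0439. The adjusted p was 0.143 when Holstein 1 was left out, 0.139 for Holstein 2 and 0.0720 for Holstein 3. It was 0.169 when Brahman 1 was left out and 0.150 for Brahman 2. When the spike-in level entered the model, the difference was 1.13 (SE 0.24) and the adjusted p 0.394. With each array centred on its median the adjusted p was 0.0592.

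**Figure D2:**
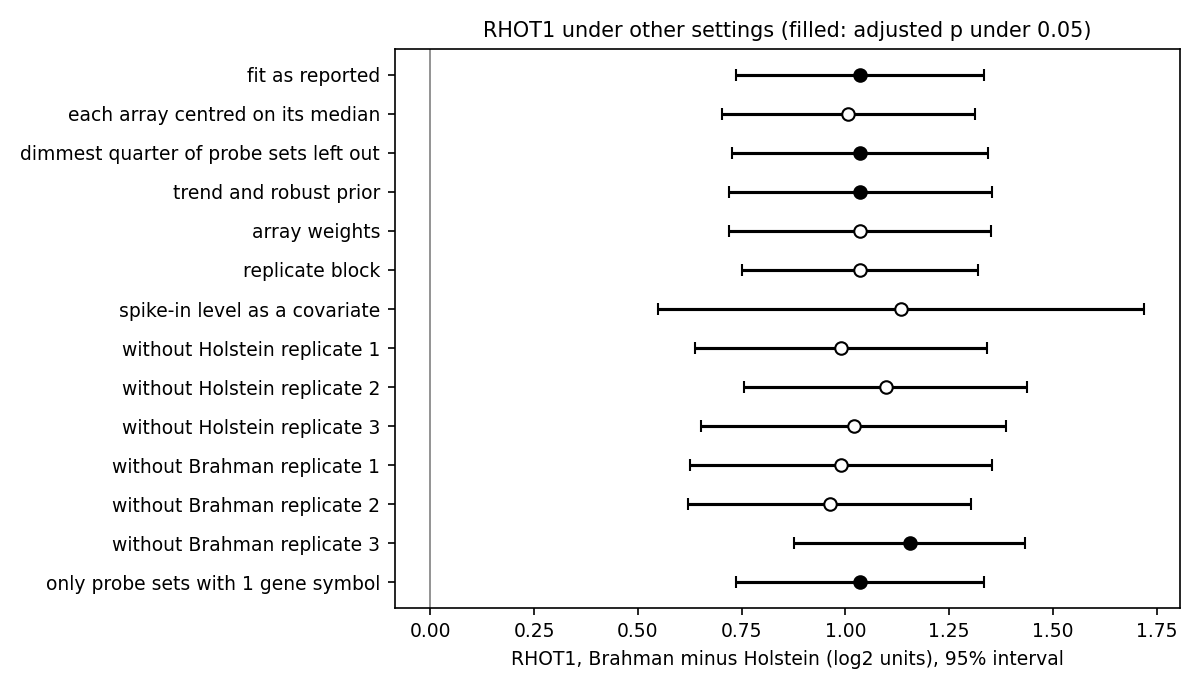
RHOT1 difference, Brahman minus Holstein in log2 units, in the reported fit and 13 alternatives, with 95% intervals as bars and filled points for an adjusted p under 0.05. The differences run from 0.96 to 1.16, with the widest interval for the spike-in covariate, and 4 of the 13 alternatives pass.

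RHOT2 encodes Miro2, the second outer membrane GTPase of the same pair, and has 2 probe sets. The first (with the suffix _s_at, used for sets that can detect more than 1 transcript) read 8.57, 8.53 and 8.55 in Holstein and 8.60, 8.50 and 8.67 in Brahman. Brahman 2 had the lowest value of all arrays and Brahman 3 the highest, so the breeds overlapped. The difference was 0.04 (SE 0.09, 95% interval -0.16 to 0.25), with an adjusted p of 0.881 in limma.

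The second RHOT2 probe set (suffix _at) read 12.77, 12.79 and 12.93 in Holstein and 12.89, 13.02 and 12.89 in Brahman. Holstein 3 reached into the Brahman range. The difference was 0.10 (SE 0.09, 95% interval -0.11 to 0.32), with an adjusted p of 0.670. Its mean exceeded that of 99.4% of probe sets, where the first exceeded 80.8%, so the annotation joins probe sets of very unequal signal under this gene. Probe sets have their own affinities, and which of them follows RHOT2 was not tested.

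The breed differences of the RHOT2 probe sets were not told apart. The second minus the first was 4.28 ± 0.09 in Holstein and 4.34 ± 0.16 in Brahman, a difference of 0.06 with a two-sided exact permutation p of 0.6, where 3 against 3 arrays cannot go below 0.1. The 95% intervals for RHOT2 ended at 0.25 and 0.32, and that of RHOT1 began at 0.74. The difference between the RHOT1 and RHOT2 effects was not tested, since RHOT1 had been chosen for its effect.

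MFN2, the outer membrane mitofusin, read 8.82, 8.94 and 9.07 in Holstein and 8.90, 8.86 and 8.92 in Brahman. The Brahman values lay within the Holstein range and close together, with an SD of 0.03 against 0.13. The difference was -0.05 (SE 0.10, 95% interval -0.28 to 0.17; limma adjusted p = 0.858), and its sign turned without Holstein 3 (0.01) and with the spike-in covariate (0.02).

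OPA1, the GTPase that fuses inner membranes and keeps cristae closed, read 8.57, 9.06 and 8.67 in Holstein and 8.39, 8.60 and 8.24 in Brahman. The breeds met narrowly: Brahman 2 stood 0.03 above Holstein 1, and otherwise Brahman values were lower. The difference was -0.35 (SE 0.16, 95% interval -0.72 to 0.01), with an unadjusted p of 0.0541 and an adjusted p of 0.376 in limma. It was -0.21 without Holstein 2, the highest array, and 0.04 with the spike-in covariate, where its sign turned.

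DNM1L, the dynamin-related GTPase of mitochondrial and peroxisomal division, read 8.10, 8.39 and 8.51 in Holstein and 7.93, 8.27 and 8.36 in Brahman. The ranges overlapped over most of their width. The difference was -0.15 (SE 0.15, 95% interval -0.51 to 0.21; limma adjusted p = 0.726), it was -0.02 without Brahman 1, and it was 0.18 with the spike-in covariate.

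FIS1, a small tail-anchored protein of the outer membrane, read 10.40, 10.38 and 10.27 in Holstein and 10.61, 10.51 and 10.39 in Brahman. Brahman 3 lay 0.003 under the top of the Holstein range, and the other Brahman animals stood above it. The difference was 0.16 (SE 0.10, 95% interval -0.07 to 0.38; limma adjusted p = 0.527).

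**Figure D3:**
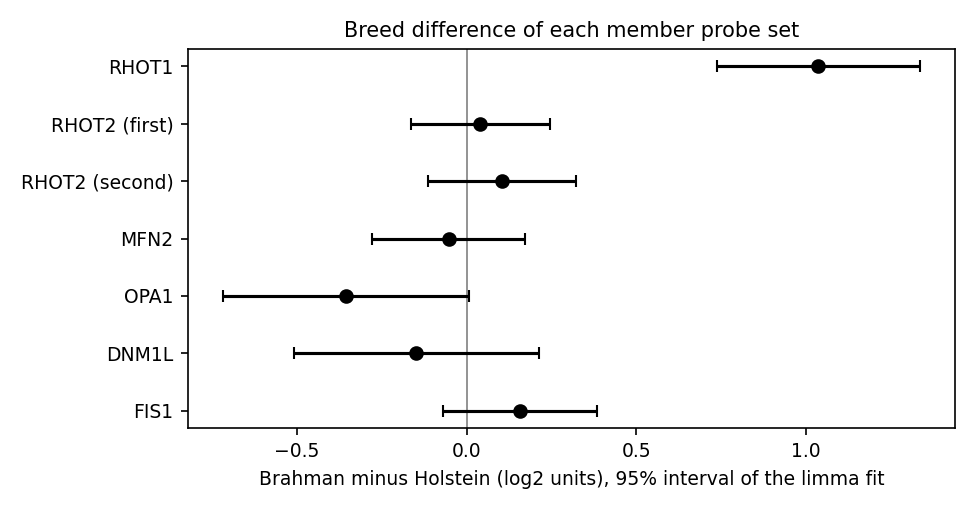
Breed difference of each member probe set in log2 units (points) with 95% intervals of the limma fit (bars). The interval of RHOT1 runs from 0.74 to 1.33, and those of the other 6 probe sets include 0.

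The members differed in how much animals of the same breed varied. The within-breed SD was 0.22 for both OPA1 and DNM1L, larger than that of 77.4% and 77.2% of probe sets. RHOT2 had the smallest values, 0.06 and 0.08, larger than those of 6.96% and 14.8% of probe sets. MFN2 and FIS1 had an SD of 0.09 each, and the median over all probe sets was 0.15. The intervals of OPA1 and DNM1L are correspondingly wide and leave room for differences of 0.72 and 0.51 below 0.

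The wider machinery was read from 7 lists of genes that act with the members, using the brightest probe set of a gene. Of 117 listed genes 87 were measured, and 71 of them had lower values in Brahman, against 51.7% of all 9155 named genes. Limma called 0 of the 87 at an adjusted p under 0.05 (smallest 0.190), against 0.164% of all genes. At an unadjusted p under 0.05, the lower genes numbered 24 and the higher gene 1, against 9.62% and 6.23% of all genes. The median difference was -0.15, against -0.01 over all genes. RHOT1 thus had a difference of the opposite sign to most of these genes.

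The count of 24 lower genes (27.6%) became 16 without Holstein 2 (18.4%), 16 without Brahman 1 (18.4%) and 15 without Brahman 3 (17.2%). The shares of all genes in these fits were 6.75%, 7.27% and 6.88%, against 9.62% in the reported fit. The count was 25 (28.7%) without Holstein 1 or Holstein 3, against 8.71% and 12.0% of all genes. With the spike-in covariate, which runs with breed, it was 5 (5.75%), against 4.76% of all genes in that fit. Values were then lower for 59 of 87, against 52.5% of all genes. Cell type markers also differed between the breeds: the mean of the T cell list was higher on every Brahman array (11 of 12 markers higher). Of 6 monocyte markers 4 had lower values, CD14 by -0.94, while VCAN was higher by 0.92 and the list mean overlapped. The part of cell types in the lower pathway values was not tested.

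**Figure D4:**
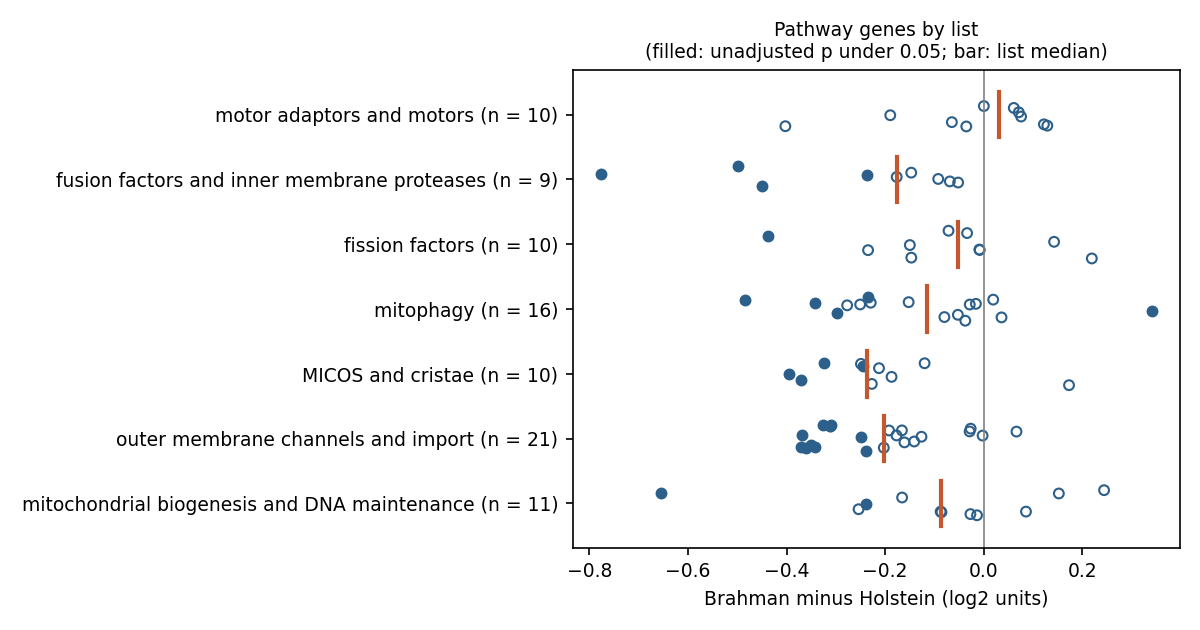
Brahman minus Holstein difference in log2 units of each measured gene in 7 lists (points, spread vertically for legibility), filled where the unadjusted p is under 0.05, with the list median as a bar. The medians run from -0.24 for MICOS and cristae genes to 0.03 for motor adaptors and motors.

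The adaptors and motors that carry mitochondria had differences in both directions. Of 10 measured genes 6 had higher and 4 lower values, and the list median was 0.03. That sign was not stable, with a median of -0.02 when the probe sets of a gene were averaged and -0.06 without Holstein 1. In limma 0 of 10 had an unadjusted p under 0.05, with 1 lower gene without Brahman 3 and 2 without Holstein 3. The conventional kinesin heavy chain KIF5B, a motor for mitochondria, differed by -0.06 and the adaptor TRAK2 by -0.04, both chosen after their values were seen, and TRAK2 lay among the dimmest 25% of probe sets, which have means under 5.08. By the smallest p, the kinesin light chain genes KLC1 and KLC4 differed by -0.40 (SE 0.17, limma adjusted p = 0.375) and -0.19 (SE 0.12, adjusted p = 0.534). The other KLC1 probe sets differed by -0.54 (limma unadjusted p = 0.0159, adjusted p = 0.267), -0.003 and 0.16, so they disagreed on direction.

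In the list of fusion factors and inner membrane proteases values were lower in Brahman for all 9 measured genes (median difference -0.18), for 4 of them at an unadjusted p under 0.05 and for 1 with the spike-in covariate. PHB1, the prohibitin that scaffolds inner membrane proteases, read 9.16, 9.34 and 9.34 in Holstein and 8.97, 8.79 and 8.58 in Brahman, a difference of -0.50 (SE 0.12, limma adjusted p = 0.190). CHCHD10, a small protein of the intermembrane space, read 8.11, 7.43 and 8.30 in Holstein and 7.26, 7.10 and 7.14 in Brahman, a difference of -0.78 (SE 0.21, adjusted p = 0.214). In both genes every Brahman value lay below every Holstein value. The OPA1-cleaving proteases YME1L1 and OMA1, chosen after their values were seen, differed by -0.07 and -0.09. The mean over the list was 8.42 ± 0.02 in Holstein and 8.14 ± 0.05 in Brahman, without overlap. Means were also lower in Brahman without overlap for the fission, mitophagy, MICOS and import lists below, but overlapped for motors and biogenesis. Without the gene of largest difference, the fission and mitophagy means overlapped.

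Fission factors, among them the membrane receptors that recruit DNM1L, were spread around a small shift. Values were lower for 8 of 10 measured genes (median difference -0.05), for 1 of them at an unadjusted p under 0.05. This count was 2 with the spike-in covariate. At that threshold 1 higher gene appeared without Holstein 1 or without Brahman 3. The lower gene in the reported fit was PGAM5, a mitochondrial phosphatase, at -0.44 (SE 0.13, limma adjusted p = 0.254). MIEF2, a DNM1L receptor, read 8.23, 8.14 and 8.22 in Holstein and 8.55, 8.45 and 8.26 in Brahman, a difference of 0.22 (SE 0.10, adjusted p = 0.405). Its breeds did not overlap, with Brahman 3 close to the Holstein values. The receptor MFF, chosen after its values were seen, differed by -0.23 (adjusted p = 0.480).

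Mitophagy genes had lower Brahman values in 13 of 16 cases (median difference -0.12). At an unadjusted p under 0.05 there were 4 lower genes and 1 higher gene. The lower genes numbered 2 without Brahman 3 and 0 with the spike-in covariate, and the higher count was 0 without Holstein 2, Brahman 2 or Brahman 3. PINK1, the kinase that marks damaged mitochondria, read 8.13, 8.12 and 8.28 in Holstein and 7.85, 7.88 and 7.78 in Brahman, a difference of -0.34 (SE 0.09, limma adjusted p = 0.208). The autophagy-initiating kinase ULK1 read 8.53, 8.92 and 8.51 in Holstein and 8.10, 8.17 and 8.24 in Brahman, a difference of -0.48 (SE 0.13, adjusted p = 0.214). Neither gene overlapped between the breeds, and another ULK1 probe set differed by 0.04. The higher gene, named after its value was seen, was the late endosomal GTPase RAB7A, at 0.34 (adjusted p = 0.303).

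The list of MICOS and cristae genes, which hold the inner membrane folds at their necks, had a median difference of -0.24. Of 10 genes 9 had lower values, 4 of them at an unadjusted p under 0.05. That count was 1 without Holstein 2 or Brahman 3, 2 without Holstein 3, Brahman 1 or Brahman 2, and 0 with the spike-in covariate. CHCHD3, a MICOS subunit, read 9.33, 9.45 and 9.35 in Holstein and 8.97, 9.19 and 9.01 in Brahman, a difference of -0.32 (SE 0.10, limma adjusted p = 0.248). The outer membrane metaxin MTX2 differed by -0.37 (SE 0.13, adjusted p = 0.302), and its other probe set by -0.33. The list mean was 8.56 ± 0.09 in Holstein and 8.34 ± 0.01 in Brahman.

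For outer membrane channels and protein import, values were lower in Brahman for 20 of 21 genes (median difference -0.20), for 9 of them at an unadjusted p under 0.05. That count was 4 without Brahman 3, 6 without Brahman 1 or Brahman 2, and 2 with the spike-in covariate. TOMM6, a small subunit of the outer membrane import pore, read 9.81, 9.90 and 9.64 in Holstein and 9.45, 9.40 and 9.47 in Brahman, a difference of -0.34 (SE 0.10, limma adjusted p = 0.233). TIMM13, a chaperone of the intermembrane space, differed by -0.33 (SE 0.09, adjusted p = 0.214). The 9 genes included the channels VDAC1 and VDAC2, at -0.35 and -0.25, named after their values were seen.

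Genes of mitochondrial biogenesis and DNA maintenance were mixed: values were lower for 8 of 11 (median difference -0.09), for 2 of them at an unadjusted p under 0.05. That count was 1 without Holstein 1, Holstein 2, Brahman 1 or Brahman 2, and 0 with the spike-in covariate. TFB1M, a methyltransferase of mitochondrial ribosomal RNA, read 7.54, 7.84 and 7.35 in Holstein and 6.53, 7.003 and 7.22 in Brahman, a difference of -0.65 (SE 0.20, limma adjusted p = 0.254). Its other probe sets differed by -0.26 and -0.94, so all of them had lower values in Brahman. POLG, the mitochondrial DNA polymerase, differed by -0.24 (SE 0.10, adjusted p = 0.352). The regulator NRF1, named after its value was seen, differed by 0.09, and PPARGC1A lay among the dimmest 25% of probe sets, at 4.91 in Holstein and 4.89 in Brahman.

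Genes that lie beside RHOT1 had smaller differences, in both directions. In the RefSeq gene order of the ARS-UCD2.0 assembly, 7 of the 12 nearest protein-coding genes, 6 on each side, had a probe set with a single gene name. Their 10 probe sets differed by -0.30 to 0.29, and limma called 0 of them at an adjusted p under 0.05, with 1 at an unadjusted p under 0.05. That 1 was RNF135, a ubiquitin ligase of RNA sensing and the next gene on one side, at 0.29 (SE 0.12, adjusted p = 0.365). RHBDL3, the next gene on the other side, had no such probe set. The difference of -0.30 came from 1 probe set of CDK5R1, with means of 7.03 in Holstein and 6.73 in Brahman. Its other probe sets differed by 0.05, 0.09 and 0.04 at much brighter signal (Holstein means 14.02, 13.88 and 13.86). Which of them follows CDK5R1 was not tested. TEFM, an elongation factor of mitochondrial transcription that is also in the biogenesis list, differed by -0.09. The neighbours were examined after the RHOT1 values were known.

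The genes whose values most resembled RHOT1 over the 6 arrays were taken by the highest Pearson r, with no test, and a shared breed difference alone raises r. They were CRIPTO (0.993), MOGAT1 (0.993), VCAN (0.990), RPLP0 (0.987) and ACSM2B (0.987). An r of at least 0.95 was reached by 60 of 13291 named probe sets, or 0.451%. CRIPTO (Holstein mean 3.28) and ACSM2B (4.57) were among the dimmest 25% of probe sets, and the differences of CRIPTO, MOGAT1 and RPLP0 were 0.14, 0.18 and 0.08.

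Of these 5 genes VCAN, the proteoglycan versican of monocytes, also had a difference of the size of RHOT1. It read 7.31, 7.73 and 7.55 in Holstein and 8.60, 8.78 and 8.28 in Brahman, a difference of 1.03 (SE 0.16, limma adjusted p = 0.0834). Brahman 2 was the highest and Brahman 3 the lowest Brahman array for both genes. The other VCAN probe sets differed by 0.92 and 1.06, with r of 0.977 and 0.892 to RHOT1.

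**Figure D5:**
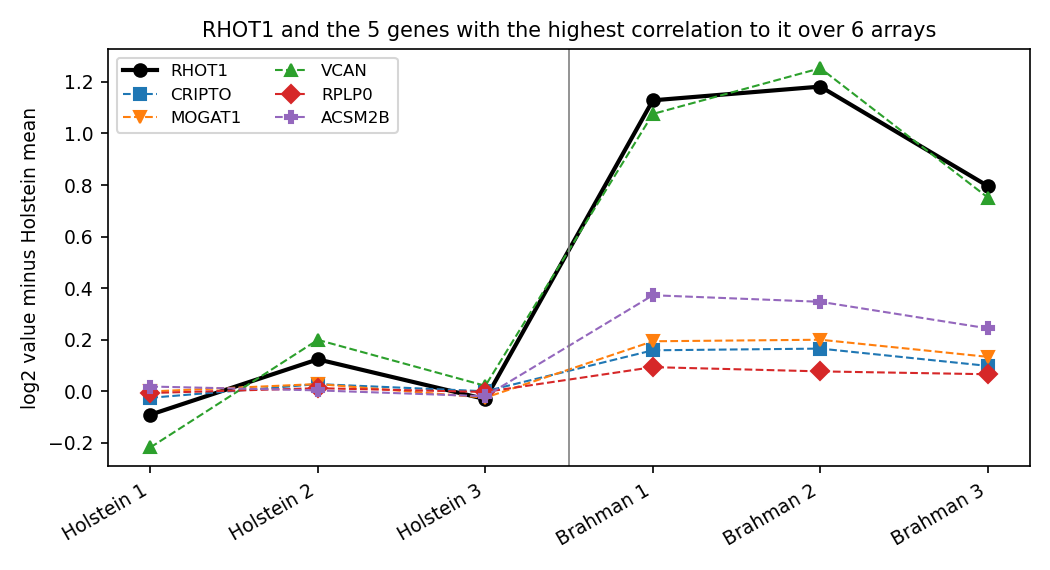
Log2 value minus the Holstein mean (vertical axis) of RHOT1 and the 5 genes with the highest Pearson r to it, on the 6 arrays (horizontal axis). VCAN follows RHOT1 in size as well, with a difference of 1.03 against 1.04, while the others differ by 0.08 to 0.32.

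Blood cell makeup was not controlled, and in unsorted cells fewer cells of a type and less RNA per cell cannot be told apart. Of 12 T cell markers 11 had higher values in Brahman, with a list mean of 9.66 to 9.86 in Holstein and 10.08 to 10.25 in Brahman, without overlap, as for RHOT1. The list means of NK markers (7 of 8 higher, 7.52 to 7.63 against 7.77 to 8.41), B cell markers (1 of 3 higher, 10.83 to 11.07 against 11.09 to 11.25) and neutrophil markers (3 of 4 higher, 9.39 to 9.65 against 9.67 to 10.20) were also higher on every Brahman array. For these 3 lists the separation rested on 1 gene each. Without GZMB, a cytotoxic granule protease with a difference of 2.51, the NK means were 7.58 to 7.65 in Holstein and 7.48 to 8.19 in Brahman, with Brahman 2 the lowest of all. PRF1, which encodes the pore-forming perforin, differed by -0.60. The other NK markers differed by 0.90 (KLRD1), 0.78 (KLRK1), 0.20 (KLRB1), 0.09 (NCR1), 0.09 (GNLY) and 0.0002 (NKG7). Without ALPL, a phosphatase with a difference of 1.42, the neutrophil means overlapped (10.69 to 11.05 against 10.73 to 11.21), and the neutrophil calprotectin genes S100A8 and S100A9 differed by -0.02 and 0.09. Without BLK, a B cell kinase with a difference of 0.97, the direction turned: the mean of MS4A1 and CD79A was 11.63 to 11.80 in Holstein and 11.37 to 11.63 in Brahman. The T cell means still did not overlap without LEF1, the T cell marker of largest difference (9.70 to 9.87 against 10.08 to 10.24). Leaving out the gene of largest difference was chosen after seeing the data.

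The monocyte list had 4 of 6 markers lower, CD14 by -0.94 and CD68 by -0.54, while VCAN was higher, and its mean overlapped (8.01 to 8.45 in Holstein and 7.81 to 8.12 in Brahman). List means overlapped as well for platelet (2 of 3 higher, 7.45 to 7.61 against 7.20 to 7.56), erythroid (5 of 7 higher, 5.70 to 6.04 against 5.84 to 5.90), and eosinophil and basophil markers (1 of 3 higher, 6.75 to 7.45 against 6.77 to 7.20). Among the platelet markers PF4, the brightest, differed by -0.60, while ITGA2B and TUBB1 differed by 0.10 and 0.06. The part of any of these cell types in the RHOT1 difference was not tested.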

How the data were processed

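White blood cell RNA of 3 Holstein and 3 Brahman animals was measured on 1 array each. The authors deposited log2 values per probe set made with RMA, per the submitters' processing notes. Its version and any genome build are not given in the sources used here. Quantile normalisation within RMA removes a global change. Of the probe sets, 112 array controls were left out and 24016 tested; 13292 had 1 gene symbol in the platform annotation, 86 several and 10638 none. No scanner intensities or probe sequences were used here, so whether the probes match both breeds equally was not tested.

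Breeds, taken from the sample titles, were compared with limma 3.58.1 in R 4.3.3 (lmFit and eBayes, two-sided, Benjamini-Hochberg over all tested probe sets), with breed as the only term. On simulated data with differences of 1 and 2 log2 units the fit called 79.1% and 97.0% of changed probe sets, with 5.05% of calls false. The simulated noise was independent between probe sets and held no array or spike-in effect, so these shares need not hold for the real arrays. The number of arrays limits the precision.

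The members, gene lists and tests were chosen with earlier results of these data known. The text names every member probe set, per pathway list the genes called or otherwise the 2 with the smallest p, and the 5 genes of highest r to RHOT1. Genes outside this rule are marked as chosen after their values were seen, apart from markers and neighbours. The alternatives tried were centring on the array median, a replicate block, leaving out each array, a spike-in covariate, weighted arrays, a trend prior, dropping dim probe sets and 1 value per gene.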

Additional observations from a re-analysis of the deposited data

How the results depend on the processing

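RHOT1 was chosen for its difference, so the constant sign over the 13 alternatives supports nothing further. A replicate block, a trend prior and dropping probe sets change the SE or the adjustment but not the difference itself. The RHOT1 difference was called in 4 alternatives: without the dimmest 25% of probe sets (1.04, adjusted p = 0.0429), with a trend and robust prior (1.04, 0.0453), without Brahman 3, and, an alternative chosen after seeing the data, over probe sets with 1 gene symbol (1.04, 0.0485). It was not called with median centring (1.01), array weights (1.04, adjusted p = 0.0651), the replicate number as a block (1.04, adjusted p = 0.107) or the spike-in covariate (1.13), and the count of called members was then 0. Leaving out an array gave 0.96 to 1.16, with 0 to 1 members called. The sample titles number the animals but name no pairs. Over all probe sets, deviations from the breed means correlated at 0.11, -0.04 and -0.07 between arrays of the same number. Whether those arrays shared any handling cannot be judged from this. The count of all called probe sets was 33, 10 with the replicate block, 0 with the spike-in covariate, 15 with 1 probe set per gene, and 5 to 55 with an array left out. With the spike-in covariate, which runs with breed, the signs of MFN2 (0.0211), OPA1 (0.0389) and DNM1L (0.18) turned. In that fit 5 pathway genes were lower at an unadjusted p under 0.05, against 24. That count was 15 to 25 with an array left out, and 63 to 71 of the 87 genes had lower values. Of all genes, 6.75% to 12.0% were lower at this threshold with an array left out, and 48.5% to 54.8% had lower values. The MFN2 difference ran from -0.115 to 0.0124 (without Holstein 3) with an array left out. The difference between the RHOT2 probe sets ran from -0.0255 to 0.125 with an array left out. With the probe sets of a gene averaged, list medians were -0.02 for motors, against 0.03, -0.09 for fusion, against -0.18, -0.05 for mitophagy, against -0.12, and -0.11 for fission, against -0.05. The causes were not tested. Detection above background could be judged only from the level.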
